A study of Homo sapiens with 192 samples.

Results

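This report describes the transcripts of 6 genes that encode CDK inhibitors, namely CDKN1B, CDKN1C, CDKN2A, CDKN2B, CDKN2C and CDKN2D, in 4 human colorectal cancer (CRC) cell lines grown in 2D and in 3D. The genes were taken by name and are 6 of the 58243 genes in the count files and 6 of the 19387 genes with enough counts to be tested. CDKN1A, which encodes p21, the remaining CIP/KIP inhibitor, is given for comparison only. From each of the established lines (HT29, LS513, HCT116, LS174T), poly(A) RNA was sequenced in 3 libraries of cells grown in 2D and 3 of cells grown in 3D, so there were 8 groups and 24 libraries. The labels give no treatment and no transgene for any group, and the sources used here do not give how long the cells were kept in 3D. HCT116 was kept in McCoy medium and the other lines in DMEM, so that for HCT116 the line and its medium cannot be told apart. The labels do not say whether the 3 libraries of a group came from separate cultures, so p-values measure the spread between these libraries, which may be technical.

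Cyclin-dependent kinases drive the cell cycle when bound to a cyclin, and CDK inhibitors restrain them. The CIP/KIP proteins p27 (CDKN1B) and p57 (CDKN1C) bind cyclin-CDK complexes, above all those with CDK2, and p27 is known to be controlled largely through its stability and location in the cell. The INK4 proteins p16 (CDKN2A), p15 (CDKN2B), p18 (CDKN2C) and p19 (CDKN2D) bind CDK4 and CDK6 and keep them from D-type cyclins, which leaves the retinoblastoma protein able to hold back E2F. The normal intestinal epithelium is known to express several of them as cells leave the crypt and stop dividing, and the CDKN2A promoter is a known site of DNA methylation in CRC.

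Levels are given in CPM, a gene's counts relative to the TMM-scaled total of its library, and differences as log2 values of 3D over 2D from edgeR's quasi-likelihood test with Benjamini-Hochberg adjustment over the 19387 genes. A gene was called at an adjusted p below 0.05. Library totals ranged from 18723942 to 34277421 counts, and the smallest of them belonged to HT29 grown in 2D, replicate 3. The floor of 3 counts therefore lay between 0.0875 and 0.160 CPM before TMM scaling. All 7 intestinal epithelial markers examined (EPCAM, CDH1, KRT8, KRT18, KRT20, VIL1 and CDX2) were above this floor in every library, and of the fibroblast list of 5 genes COL1A2 was at 0 in every library. In each group 1 fibroblast gene, or 2 in HCT116, was above the floor in all 3 libraries, and the list summed to 10.2 to 22.1 CPM in HCT116 and to at most 1.10 CPM in the other lines. The leukocyte list of 4 genes summed to 1319 to 1430 CPM in 2D and 2420 to 2674 CPM in 3D in HT29, 20.7 to 22.3 and 65.3 to 96.3 CPM in LS513, 9.49 to 13.2 and 36.03 to 47.6 CPM in HCT116, and 3.67 to 6.01 and 8.72 to 10.2 CPM in LS174T. The ranges in 3D were thus above those in 2D in each line, with 2 of the 4 genes above the floor in all libraries of HT29, LS513 and LS174T and 1 in HCT116, and CD3E, a defining T cell gene, at 0 in every library. PTPRC, the gene of CD45, was also at 0 in all libraries of HT29 in 3D, LS513 in 2D, HCT116 in 2D and 3D, and LS174T in 3D. In HT29 grown in 3D the sum thus came from the other 2 genes, CD68 and LYZ. The part of the marker genes in the results below was not tested. Fewer cells that express a gene and less RNA of it per cell cannot be told apart in such bulk libraries.

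CDKN2A and CDKN2B lie next to each other on the minus strand of chromosome 9 (GRCh38, GENCODE 29 annotation). CDKN2A spans chr9:21967753-21995301 and CDKN2B spans chr9:22002903-22009363. CDKN2A has 2 known first exons under separate promoters, one for p16 and one, farther upstream, for p14ARF, a protein that stabilises p53 through MDM2. Counts per gene sum both, so p16 and p14ARF transcripts cannot be told apart here. The p16 and p15 genes are paralogs, and 6 of the 4629 stretches of 75 bases in CDKN2A transcripts and 6 of the 4051 in CDKN2B transcripts were found exactly in the other gene, while the other 4 genes shared none. Because CDKN2A differed most between lines and CDKN2B had the widest range of growth effects, the stretches just upstream of their outermost annotated starts are shown, 5′ to 3′ on the minus strand (RefSeq, GRCh38.p14), with every CG dinucleotide in capitals. The CDKN2A stretch is the p14ARF side, chr9:21995325-21995574, and the CDKN2B stretch is chr9:22009364-22009555.
CDKN2A: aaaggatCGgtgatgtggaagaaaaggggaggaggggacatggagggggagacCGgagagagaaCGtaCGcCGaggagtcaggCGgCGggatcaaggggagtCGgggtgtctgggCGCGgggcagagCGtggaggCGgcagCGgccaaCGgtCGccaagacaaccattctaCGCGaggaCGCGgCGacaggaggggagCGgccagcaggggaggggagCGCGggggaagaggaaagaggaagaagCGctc
CDKN2B: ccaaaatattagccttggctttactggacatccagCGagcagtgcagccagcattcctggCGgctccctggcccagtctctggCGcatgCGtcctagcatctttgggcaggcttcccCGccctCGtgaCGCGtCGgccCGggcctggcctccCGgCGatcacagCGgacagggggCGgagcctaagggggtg
These stretches hold 24 CG dinucleotides in 250 bases and 14 in 192 bases. Over the whole RefSeq promoter window, 250 bases before to 50 after the start, the p14ARF start of CDKN2A had 28, its p16 start had 26 and CDKN2B had 25. Of the 34943 promoter windows in the table, 26.1%, 30% and 31.9% held at least as many, and the median window held 14. The 6 letters GGGCGG, a GC box, counted on either strand, occurred 0 times in the p14ARF window, 2 times in the p16 window and 2 times in the CDKN2B window, and 44.9% of all windows held it. RefSeq windows were found for 5 of the 6 genes, all but CDKN1C. The CDKN2D window held 36 CG dinucleotides and 3 copies of GGGCGG, and the CDKN1B window held 29 and 1. The CDKN2C windows, in order of position, held 8, 37 and 11 CG dinucleotides and 0, 6 and 1 copies of GGGCGG. The letters alone give no account of whether a site is methylated or bound in these cells.

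Per kilobase of exonic length, which is the scale on which levels of different genes can be compared, CDKN1B had the largest or the second largest share of the 6 genes' summed level in each of the 8 groups. In LS513 it made up 66.5% ± 0.511 (SD, n = 3) of the sum in 2D and 60.3% ± 5.85 in 3D, and in LS174T 46.4% ± 1.78 and 51.2% ± 0.976. In HT29 CDKN1B and CDKN2A were close, at 31.6% ± 2.88 and 33.8% ± 1.68 in 2D. In HCT116 grown in 3D CDKN2D led with 32.4% ± 1.16, against 22.6% ± 0.515 for CDKN1B and 21.8% ± 0.553 for CDKN2A. The lines thus divided by CDKN2A, which had a large share in HT29 and HCT116 and at most 0.202% in LS513 and LS174T. CDKN2C held 34.4% ± 1.13 in LS174T grown in 2D. CDKN1C and CDKN2B were minor everywhere, with at most 9.11% and 6.82%. The sum itself lay between 25.4 and 38.9 CPM per kb over the 8 groups. These shares and ranks depend on the length used, above all for CDKN2A, with 4329 exonic bases in all but 1283 in its longest transcript. Per kb of the longest transcript, CDKN2A led in HCT116 grown in 3D with 25.4 CPM, ahead of CDKN2D with 11.8 and CDKN1B with 8.26. On that scale CDKN2A also led in HT29 grown in 2D, with 38.8 CPM per kb against 11.4 for CDKN1B.

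**Figure D1:**
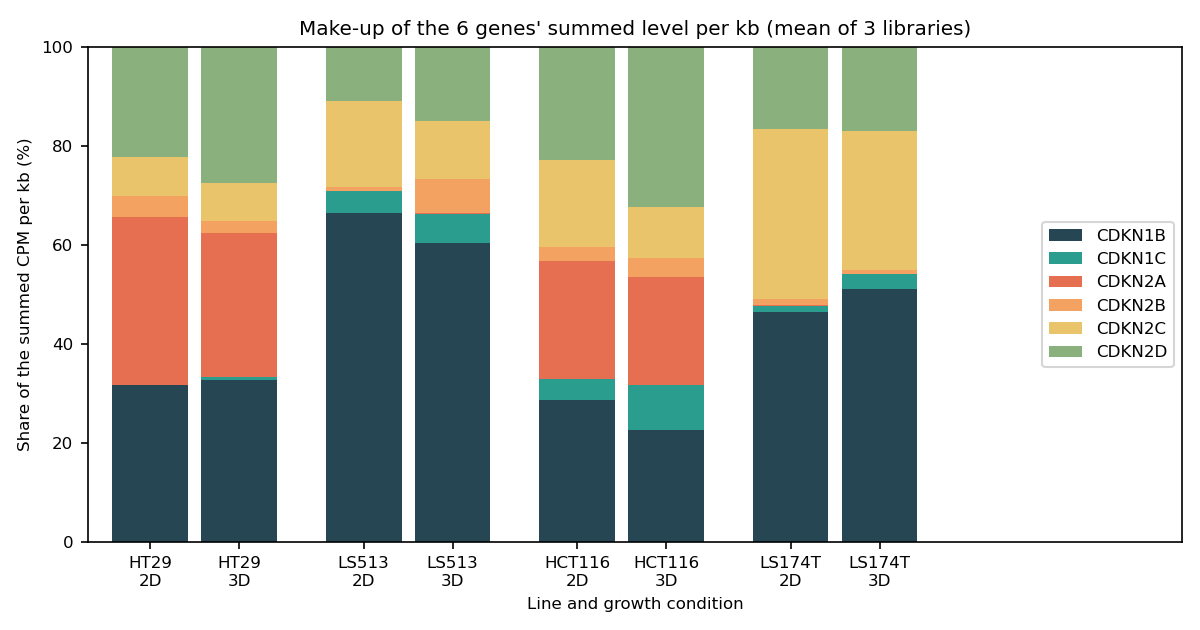
Stacked bars give, for each line and growth condition, the mean share (%) of each of the 6 genes in their summed CPM per kb of exonic length (3 libraries per bar). CDKN2A fills 33.8% of the bar of HT29 grown in 2D and is not visible in LS513 and LS174T, where CDKN1B and CDKN2C take most of the bar.

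In 3D, transcripts of 2 or 3 of the 6 genes were higher in each line, and 1 was lower in HT29, LS513 and HCT116. In HT29, 3 of the 6 genes rose and 1 fell, where 40.7% of all genes tested were called (21.1% higher and 19.6% lower). In LS513, 2 rose and 1 fell, with 23.6% of all genes called (13.7% higher and 9.9% lower). In HCT116, 3 rose and 1 fell, with 29.1% called (16.8% higher and 12.3% lower), and in LS174T 2 rose and 0 fell, also by DESeq2 and at an unadjusted p below 0.05 for the fall, with 22.2% called (13.1% higher and 9.15% lower). The median log2 difference of the 6 genes was 0.19, 0.39, 0.50 and 0.31 in the same order of lines, against 0.00, 0.00, 0.01 and 0.02 over all genes tested. The 2D and 3D libraries did not overlap for 3, 5, 3 and 3 of the 6 genes, where this held for 52.9%, 42.9%, 40.4% and 38.5% of all genes. CDKN1C and CDKN2D were each called higher in 3 of the 4 lines, as were 8.38% of all genes in at least 3 lines. CDKN2B was called higher in LS513 and HCT116 and lower in HT29, a change of direction between lines found for 2.88% of all genes. The fall in HT29 was called in only 1 of the 6 fits that left out 1 of its libraries. CDKN2A was called in none of the 4 lines by edgeR, while 1 line, LS513, had an unadjusted p below 0.05 (0.016) and 1, again LS513, was called by DESeq2. A test of whether the growth effect differed among the 4 lines was passed by CDKN1B, CDKN1C, CDKN2B and CDKN2C, 4 of the 6 genes, and by 17.1% of all genes.

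**Figure D2:**
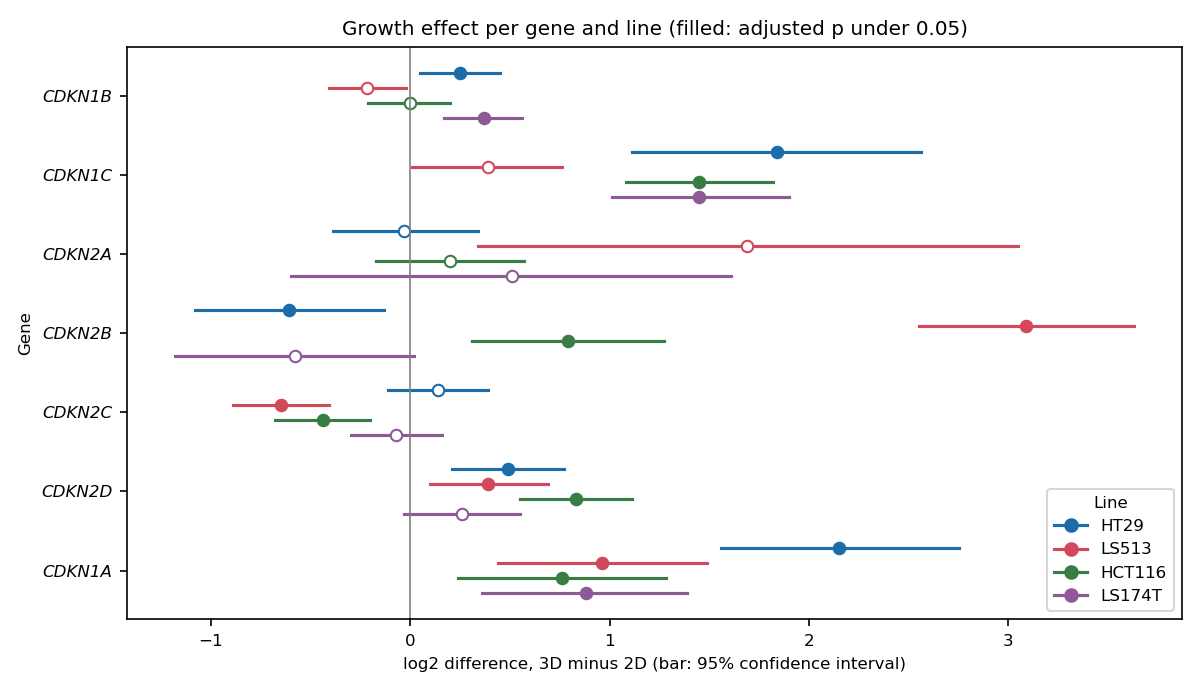
Points give the log2 difference of 3D over 2D for each gene (rows) in each line (colours), bars its 95% confidence interval, and filled points an adjusted p below 0.05 (edgeR). CDKN2B spreads from -0.61 in HT29 to 3.09 in LS513, while CDKN2D lies between 0.26 and 0.83 in all lines.

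**Figure D3:**
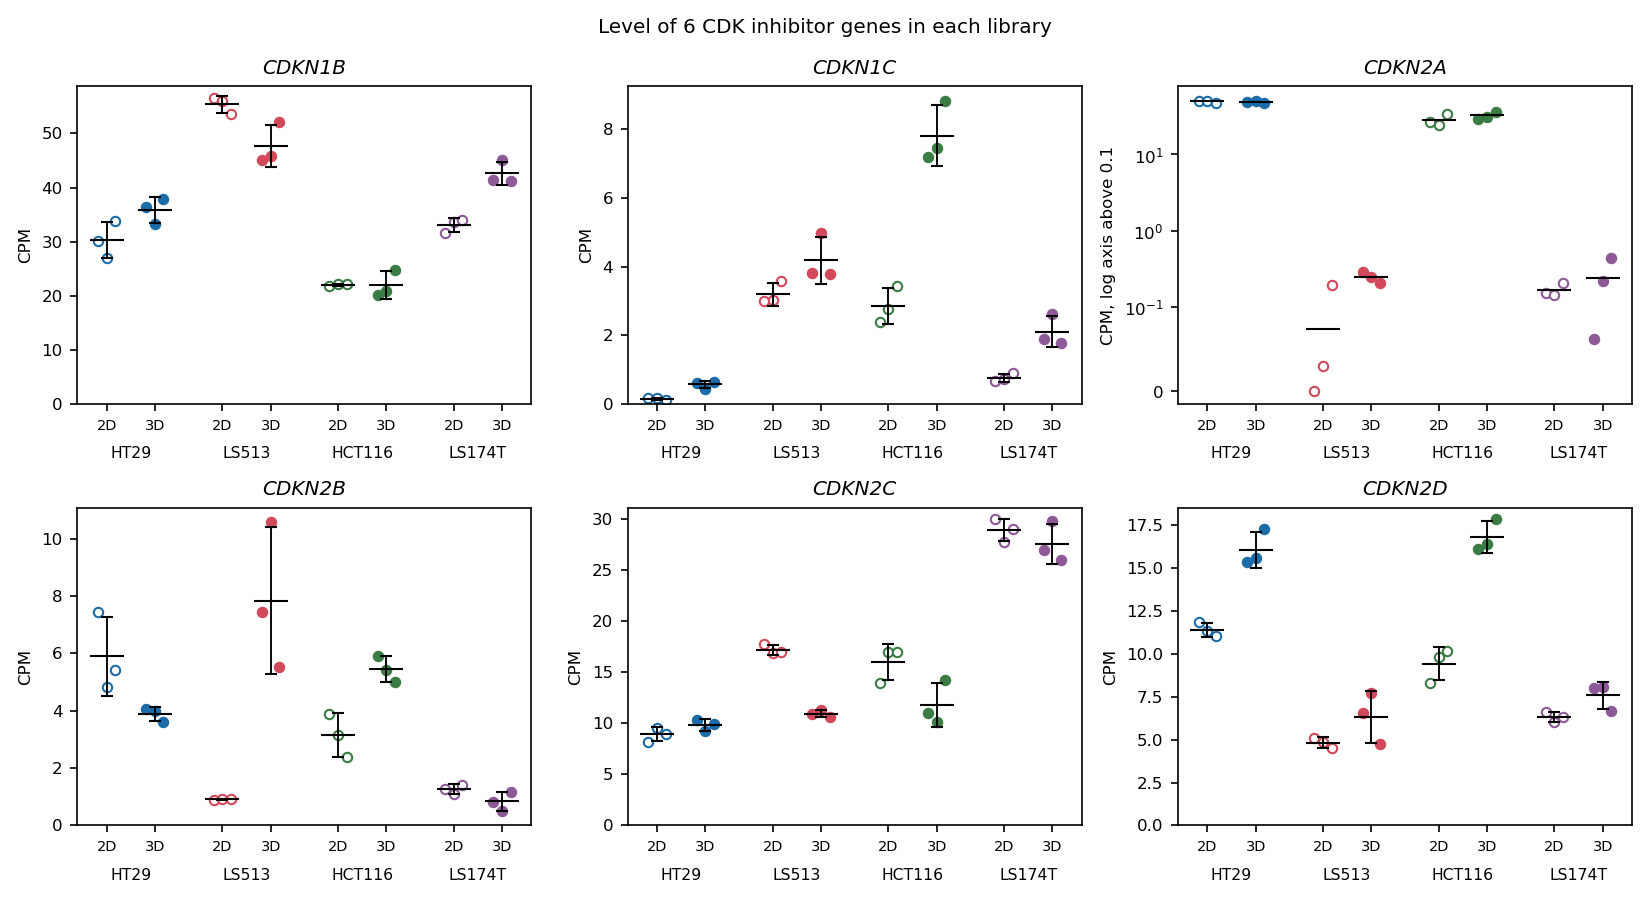
Each point is the CPM of 1 library (open, 2D; filled, 3D), horizontal marks are group means and bars the SD of 3 libraries; the CDKN2A panel has a log axis above 0.1 CPM and no bars. CDKN2A is above 24 CPM in all libraries of HT29 and HCT116 and below 0.5 CPM in all libraries of LS513 and LS174T.

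CDKN1B (chr12:12715058-12722371, plus strand), which encodes p27, the inhibitor best known for holding cyclin E-CDK2 in check, differed little between growth conditions and more between lines. In HT29 its level was 30.1, 27.01 and 33.8 CPM in 2D and 36.4, 33.3 and 37.9 CPM in 3D. In LS174T it was 31.6, 33.6 and 34.0 CPM in 2D and 41.4, 45.1 and 41.3 CPM in 3D. The 2D and 3D libraries overlapped in HT29, by 1 library on each side, and were apart in LS174T. CDKN1B rose in LS174T by 0.37 (log2, SE 0.10, adjusted p = 0.0093) and in HT29 by 0.25 (SE 0.10, adjusted p = 0.046). The HT29 call was lost without 2D replicate 1 (adjusted p = 0.05) or 2 (0.14), and without 3D replicate 1 (0.066) or 4 (0.088), with log2 values of 0.21 to 0.29. In LS513 the level was 56.5, 56.0 and 53.7 CPM in 2D and 45.2, 45.8 and 52.2 CPM in 3D. All 3 LS513 libraries in 3D were below those in 2D, with a log2 difference of -0.22 (SE 0.10) that missed the threshold (adjusted p = 0.11). It passed without LS513 3D replicate 3 (-0.28, adjusted p = 0.049). In HCT116 the levels were 21.8, 22.1 and 22.1 CPM in 2D and 20.1, 20.9 and 24.8 CPM in 3D, with no call and a 95% interval from -0.21 to 0.20.

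The growth effect on CDKN1B differed among lines (edgeR, adjusted p = 0.013). It was lower in LS513 than in HT29 (HT29 minus LS513 0.46, SE 0.14, adjusted p = 0.027) and lower than in LS174T (LS513 minus LS174T -0.58, SE 0.14, adjusted p = 0.014). In 2D, CDKN1B was highest in LS513, followed by LS174T, HT29 and HCT116, and LS174T and HT29 did not differ beyond their spread (0.13 log2, SE 0.10, adjusted p = 0.25). In 3D the order was the same, but LS513 and LS174T were now the neighbours that did not differ (0.16, SE 0.10, adjusted p = 0.15). Of the 6 pairs of lines, 5 differed in 2D and 5 in 3D. Over the 6 genes, 30 of the 36 comparisons of a gene between a pair of lines passed in 2D and 28 of 36 in 3D, where most genes passed in any pair. In 2D the share of all genes was 60.6% for HT29 and LS513, 68.8% for HT29 and HCT116, 64.6% for HT29 and LS174T, 68.3% for LS513 and HCT116, 57.6% for LS513 and LS174T, and 68.3% for HCT116 and LS174T. In 3D, for the pairs in that order, it was 61.9%, 68.5%, 65.5%, 68.5%, 60.9% and 67.2%.

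Genes that act on p27 are a list of 10, of ubiquitin ligase parts and FOXO transcription factors. SKP2, the F-box protein that marks p27 protein for destruction, fell in LS513 (97.9 to 58.0 CPM, log2 -0.76, adjusted p = 2.5e-04) and HCT116 (69.9 to 37.9 CPM, log2 -0.88, adjusted p = 4.6e-05). It also fell in HT29 (log2 -0.57, adjusted p = 0.0019), while in LS174T its difference of -0.37 had an adjusted p of 0.051. These are transcript levels, and p27 protein was not measured, so a link of SKP2 to p27 was not tested. FOXO4, one of the FOXO factors known to activate CDKN1B, rose in HT29 from 10.7 to 29.9 CPM (log2 1.48, adjusted p = 2.9e-08). It also rose in LS513 (0.61, adjusted p = 0.0025) and HCT116 (0.86, adjusted p = 5.6e-05). FOXO1 fell in HT29 only among the 4 lines by this test (log2 -1.01, adjusted p = 8.5e-05). The test of whether its growth effect differed between lines is not reported here. RBX1, a RING subunit of the same ligase class, rose in HT29 (log2 0.64, adjusted p = 0.011) and HCT116 (log2 0.52, adjusted p = 0.044). It also rose in LS174T (log2 0.62, adjusted p = 0.024), with uneven libraries in 3D (mean 61.7 CPM, SD 26.2, n = 3). Of the 10 genes, 2 rose and 3 fell in HT29, 2 and 1 in LS513, 3 and 2 in HCT116, and 1 and 0 in LS174T, with list medians of -0.12, 0.04, 0.11 and 0.09. Over all genes tested, 40.7%, 23.6%, 29.1% and 22.2% were called in either direction in these lines.

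CDKN1C (chr11:2883213-2885773, minus strand) encodes p57, an inhibitor tied to cell cycle exit during development, and lies in an imprinted domain of 11p15 where the maternal copy is the active one. It was scarce in 2D and rose in 3D in HT29, HCT116 and LS174T. In HCT116 it went from 2.39, 2.76 and 3.43 CPM in 2D to 7.18, 7.45 and 8.82 CPM in 3D. In LS174T it went from 0.658, 0.739 and 0.889 CPM to 1.90, 2.62 and 1.78 CPM. Every 3D library of these lines lay above every 2D library, and the log2 differences were 1.45 (SE 0.18, adjusted p = 2.9e-06) and 1.45 (SE 0.21, adjusted p = 5.0e-05), or 2.73-fold and 2.74-fold. In HT29 the same direction rested on few reads, 5, 5 and 2 counts in 2D and 20, 13 and 18 in 3D, or 0.151 ± 0.0359 and 0.569 ± 0.106 CPM (SD, n = 3), with a log2 difference of 1.84 (SE 0.35, adjusted p = 2.5e-04). One of those HT29 libraries in 2D was at or below the floor of 3 counts, as the only such CDKN1C library. In LS513 the level was 2.99, 3.02 and 3.58 CPM in 2D and 3.80, 4.97 and 3.78 CPM in 3D. These did not overlap either, but the log2 difference of 0.39 (SE 0.18) missed the threshold (adjusted p = 0.13).

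The test among lines was passed by CDKN1C (adjusted p = 0.0061), though not with technical replicates e to h alone (adjusted p = 0.15), and LS513 was the line apart. Its growth effect was smaller than that of HT29 (HT29 minus LS513 1.45, SE 0.40, adjusted p = 0.018), of HCT116 (LS513 minus HCT116 -1.06, SE 0.25, adjusted p = 0.014) and of LS174T (LS513 minus LS174T -1.07, SE 0.28, adjusted p = 0.032). No other pair passed. In 2D, LS513 and HCT116 had the highest CDKN1C levels and did not differ (0.16 log2, SE 0.18, adjusted p = 0.45), ahead of LS174T and then HT29. In 3D, HCT116 exceeded LS513 by 0.90 (SE 0.18, adjusted p = 8.4e-05), and all 6 pairs of lines differed.

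KCNQ1OT1, the paternally expressed antisense RNA of the same imprinted domain, which is known to silence CDKN1C in cis, had the opposite sign of difference in every line. It was at 7.24, 5.13 and 9.97 CPM in HT29 grown in 2D and at 1.03, 3.46 and 2.10 CPM in 3D, without overlap. It fell there by 1.76 on the log2 scale (SE 0.32, adjusted p = 1.8e-04), in LS513 by 1.09 (SE 0.31, adjusted p = 0.012) and in LS174T by 1.13 (SE 0.36, adjusted p = 0.029). In HCT116, where the CDKN1C level reached its highest values, KCNQ1OT1 was at 1.24, 1.32 and 0.770 CPM in 2D and 0.665, 0.850 and 0.334 CPM in 3D. These groups overlapped, and the KCNQ1OT1 difference of -0.85 was not called (SE 0.41, adjusted p = 0.13). In LS513 KCNQ1OT1 fell from 8.44 to 3.96 CPM on average and CDKN1C was not called. Whether KCNQ1OT1 has a part in the CDKN1C differences was not tested. Among the other 11p15 genes, SLC22A18, a transporter gene next to CDKN1C, rose in all 4 lines, by 0.97 in HT29 (adjusted p = 1.8e-05), 1.00 in LS513 (adjusted p = 1.9e-05), 1.58 in HCT116 (adjusted p = 1.0e-07) and 1.14 in LS174T (adjusted p = 7.1e-06). H19, the imprinted noncoding RNA near IGF2, rose in HT29 from 0.163 to 9.18 CPM (log2 5.73, adjusted p = 2.1e-08). It also rose in LS174T from 572 to 1009 CPM (log2 0.82, adjusted p = 0.018). In LS513 H19 fell from 78.3 to 41.7 CPM (log2 -0.91, adjusted p = 0.009), with uneven libraries in 2D (SD 35.7 CPM, n = 3). Over the list of 6 genes with KCNQ1OT1 included, 4 rose and 1 fell in HT29, 1 and 2 in LS513, 3 and 0 in HCT116, and 2 and 1 in LS174T. The list medians were 1.06, -0.25, 0.47 and 0.25 in these lines, where 40.7%, 23.6%, 29.1% and 22.2% of all genes were called in either direction.

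**Figure D4:**
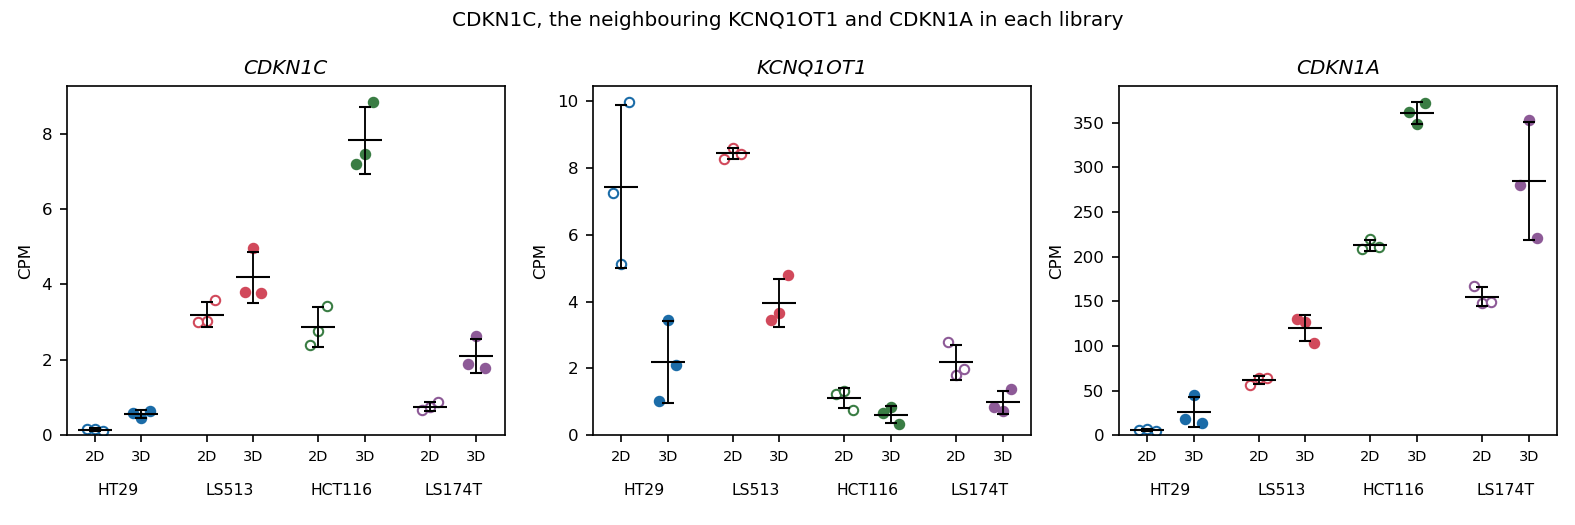
CPM of CDKN1C, KCNQ1OT1 and CDKN1A in each library (open, 2D; filled, 3D), with group means and SD of 3 libraries, by line. CDKN1C is higher and KCNQ1OT1 lower on average in 3D in each line, though not every difference passed the test, and CDKN1A was called higher in all 4 lines.

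CDKN1A rose in all 4 lines, by 2.15 in HT29 (SE 0.29, adjusted p = 6.4e-06), 0.96 in LS513 (adjusted p = 0.0075), 0.76 in HCT116 (adjusted p = 0.025) and 0.88 in LS174T (adjusted p = 0.016). Its 3D libraries in HT29 ranged from 14.0 to 44.8 CPM, against 4.82 to 6.81 CPM in 2D. None of the 6 genes was called in all 4 lines.

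CDKN2A, the gene of p16 and p14ARF, divided the lines and did not pass the growth test in any of them. It was at 51.1, 50.4 and 47.9 CPM in HT29 grown in 2D and at 48.5, 50.5 and 47.9 CPM in 3D. In HCT116 it was at 26.7, 24.6 and 33.9 CPM in 2D and at 29.6, 31.5 and 36.7 CPM in 3D. The growth groups overlapped in both lines, and the 95% intervals of the log2 difference ran from -0.39 to 0.34 in HT29 and from -0.17 to 0.57 in HCT116. In LS513 there were 0, 1 and 6 CDKN2A counts in 2D and 8, 7 and 6 in 3D, and in LS174T 5, 5 and 7 in 2D and 2, 6 and 14 in 3D. These are levels of 0 to 0.430 CPM, and 3 of the 12 libraries of these lines were at or below the floor of 3 counts. In LS513 the log2 difference of 1.69 (SE 0.65, adjusted p = 0.063) depended on 1 library: without 2D replicate 3, which held 6 of the 7 counts in 2D, it was 3.67 with an adjusted p of 0.0048. DESeq2 and a test without the filter on low counts called it as well (adjusted p = 0.027 and 0.026). Over the 4 lines the growth effect on CDKN2A did not differ beyond the spread (adjusted p = 0.26), a test with little reach at such counts.

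Between lines the CDKN2A gap was the widest among the 6 genes. In 2D HT29 exceeded HCT116 by 0.81 (SE 0.18, adjusted p = 3.3e-04) and HCT116 exceeded LS174T, the next line, by 7.38 (SE 0.30, adjusted p = 3.2e-16), whereas LS174T and LS513 did not differ (1.14, SE 0.69, adjusted p = 0.16). In 3D HT29 was again above HCT116 (0.59, SE 0.18, adjusted p = 0.0055) and HCT116 above LS513, by 7.03 (SE 0.29, adjusted p = 3.5e-16), and LS513 and LS174T did not differ (0.05, SE 0.51, adjusted p = 0.96). HT29 and LS513 are known as microsatellite stable lines, HCT116 and LS174T as lines with microsatellite instability. Each class thus held 1 line with and 1 line nearly without CDKN2A transcript. Of the neighbouring genes, MTAP and CDKN2B were read in LS513 and LS174T as well, at lower levels in 2D than in the other lines. CDKN2B-AS1, a noncoding RNA described below, was at or below the floor in LS513 and LS174T. MTAP, the methionine salvage gene next to CDKN2A that is often lost with it, was at 75.97 to 77.0 CPM in LS513 and 68.4 to 72.7 CPM in LS174T grown in 2D, against 148 to 156 CPM in HT29 and 241 to 302 CPM in HCT116, and each of these lines was lower than HT29 and HCT116 in 2D (adjusted p at most 6.6e-09). CDKN2B had 14 counts or more in every library of these lines and in 2D was likewise lower in LS513 and LS174T than in HT29 and HCT116.

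CDKN2B (p15), best known as the INK4 inhibitor induced by TGF-beta, had the widest range of growth effects among the 6 genes. In LS513 its level was 0.901, 0.936 and 0.919 CPM in 2D (28, 31 and 29 counts) and 7.43, 10.6 and 5.51 CPM in 3D (211, 298 and 159 counts). Each 3D library held more than 5 times the CPM of any 2D library, and the log2 difference was 3.09 (SE 0.26, 95% interval 2.55 to 3.63, adjusted p = 1.4e-08), or 8.50-fold. In HCT116 the level was 3.90, 3.16 and 2.37 CPM in 2D and 5.92, 5.42 and 5.01 CPM in 3D. The groups were apart and CDKN2B rose by 0.79 (SE 0.23, adjusted p = 0.013), a call that was lost without 2D replicate 3 (0.60, adjusted p = 0.077), without 3D replicate 1 (0.71, adjusted p = 0.056) and when technical replicates a to d alone were counted (0.52, adjusted p = 0.14). In HT29 the level was 7.44, 4.82 and 5.42 CPM in 2D and 4.07, 3.98 and 3.59 CPM in 3D. Here CDKN2B fell by 0.61 (log2, SE 0.23, adjusted p = 0.04), without overlap, but the call held only when 2D replicate 2 was the library left out of the 6. Without 2D replicate 1 the difference was -0.34 (adjusted p = 0.32), and without 2D replicate 3, 3D replicate 1, 3D replicate 3 or 3D replicate 4 it was -0.63, -0.61, -0.58 and -0.52 (adjusted p = 0.065, 0.087, 0.1 and 0.14). In LS174T the levels were 1.29, 1.08 and 1.42 CPM in 2D and 0.828, 0.510 and 1.17 CPM in 3D, which overlapped, with a difference of -0.58 (SE 0.29, adjusted p = 0.16). Without LS174T 3D replicate 3 that difference was -0.89 and passed (adjusted p = 0.041).

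Of the 6 pairs of lines, 5 differed in the growth effect on CDKN2B (test among lines, adjusted p = 2.9e-07), where a difference was found for 12.1% of all genes between HT29 and LS513, 7.76% between HT29 and HCT116, 6.65% between HT29 and LS174T, 4.34% between LS513 and HCT116, 3.62% between LS513 and LS174T and 4.75% between HCT116 and LS174T. The difference of effects was -3.69 for HT29 minus LS513 (SE 0.35, adjusted p = 1.8e-07), 3.66 for LS513 minus LS174T (SE 0.39, adjusted p = 6.2e-06) and 2.30 for LS513 minus HCT116 (SE 0.35, adjusted p = 2.2e-04). It was -1.40 for HT29 minus HCT116 (SE 0.33, adjusted p = 0.0077) and 1.37 for HCT116 minus LS174T (SE 0.37, adjusted p = 0.032), so LS513 had the strongest effect and HCT116 the next. The order of lines turned with it. In 2D HT29 was highest, above HCT116 by 0.91 (SE 0.23, adjusted p = 0.0014), and LS513 was lowest with LS174T (0.46 apart, SE 0.29, adjusted p = 0.18). In 3D LS513 was highest, above HCT116 by 0.52 (SE 0.22, adjusted p = 0.042), HCT116 and HT29 did not differ (0.49, SE 0.23, adjusted p = 0.063), and LS174T was lowest.

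CDKN2B-AS1 (ANRIL), a long noncoding RNA on the opposite strand that is known to recruit Polycomb proteins to this locus, shares 341 exonic bases, 7.88% of the CDKN2A exons, with CDKN2A. It was the one gene that shared exonic bases with any of the 6. The library kit keeps the strand, but whether the counting used it is not given in the sources used here. The RNA was at 1.17, 1.24 and 1.15 CPM in HT29 grown in 2D and 0.905, 1.42 and 0.943 CPM in 3D. In HCT116 it was at 0.755, 0.805 and 0.770 CPM in 2D and 0.233, 0.588 and 0.234 CPM in 3D, and fell by 1.13 on the log2 scale (SE 0.35, adjusted p = 0.019). In LS513 and LS174T it had at most 2 counts in a library. It was thus read in the lines with CDKN2A transcript and was at or below the floor in the others, in 2D and in 3D.

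**Figure D5:**
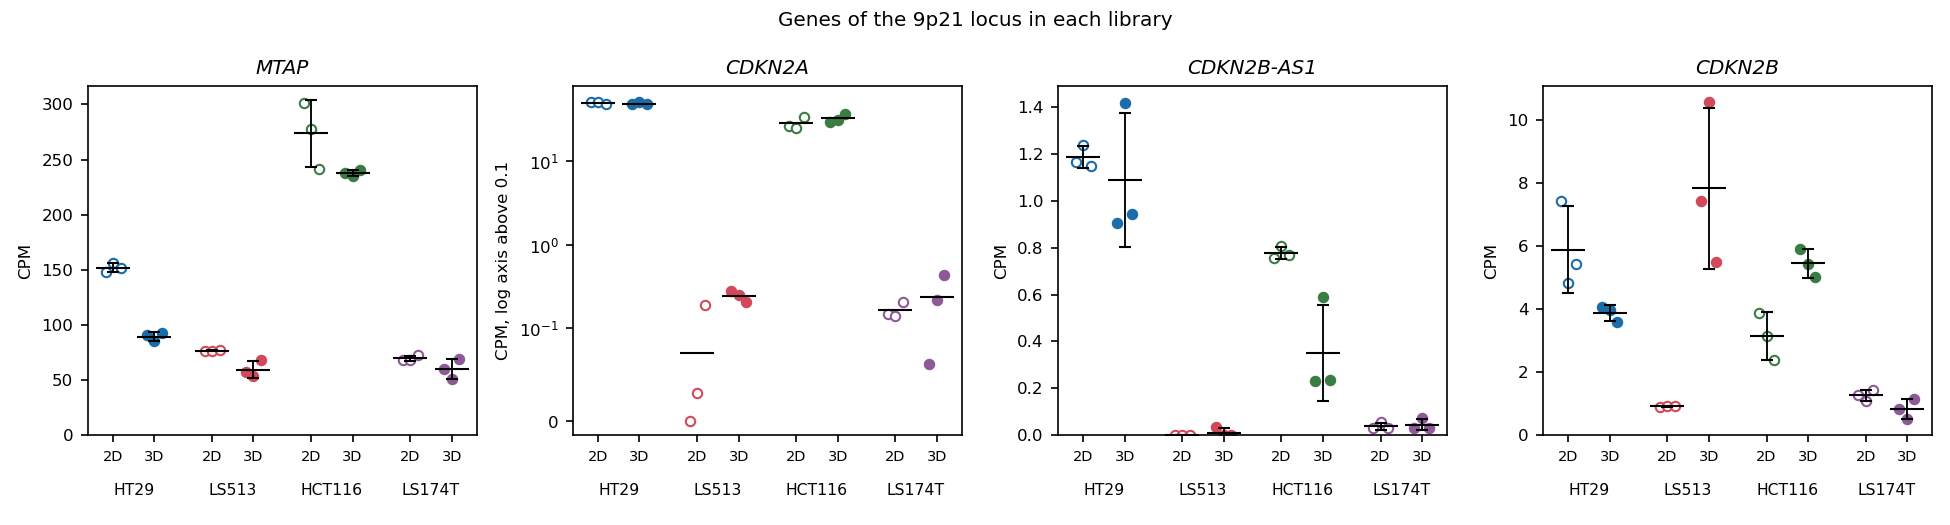
CPM of MTAP, CDKN2A, CDKN2B-AS1 and CDKN2B in each library (open, 2D; filled, 3D), with group means and, except for CDKN2A on its log axis, SD of 3 libraries. CDKN2A and CDKN2B-AS1 are near 0 in LS513 and LS174T, whereas MTAP stays above 50 CPM and CDKN2B above 0.5 CPM.

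Of 12 genes known to act on the INK4-ARF locus or beside p14ARF, most of those called fell in 3D in HT29, LS513 and HCT116. The counts were 1 higher and 6 lower in HT29, 0 and 4 in LS513, 2 and 5 in HCT116, and 3 and 1 in LS174T, with medians of -0.25, -0.12, -0.15 and 0.02. Among all genes, 21.1%, 13.7%, 16.8% and 13.1% were called higher and 19.6%, 9.9%, 12.3% and 9.15% lower, in the same order. EZH2, the Polycomb methyltransferase, fell in HT29 from 110 to 66.5 CPM (log2 -0.72, adjusted p = 6.0e-07) and in HCT116 from 117 to 79.9 CPM (log2 -0.55, adjusted p = 3.2e-05). It also fell in LS513 (log2 -0.24, adjusted p = 0.039). CBX7, a Polycomb reader, rose in HT29 (log2 0.86, adjusted p = 3.9e-05), HCT116 (log2 0.36, adjusted p = 0.039) and LS174T (log2 0.47, adjusted p = 0.014). ETS2, an activator of the p16 promoter, fell in LS513 (log2 -0.59, adjusted p = 6.1e-04). ID1, which antagonises ETS factors there, rose in HCT116 from 75.2 to 169.9 CPM (log2 1.18, adjusted p = 0.0025), with uneven libraries in 2D (SD 32.2 CPM, n = 3). It also rose in LS174T from 63.2 to 157 CPM (log2 1.31, adjusted p = 0.0019). MDM2, the ligase that p14ARF inhibits, fell in HT29 (log2 -0.50, adjusted p = 0.021), HCT116 (log2 -0.54, adjusted p = 0.017) and LS174T (log2 -0.49, adjusted p = 0.038). By edgeR, CDKN2A did not pass the growth test in any line and was near 0 in LS513 and LS174T. CDKN2B was called higher in LS513 and HCT116 and, less stably, lower in HT29. Whether the genes of this list have a part in either was not tested.

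CDKN2C (chr1:50960745-50974633, plus strand) encodes p18, an INK4 protein whose transcript is known to be under E2F control, and it was the one of the 6 genes that fell in 2 lines. In LS513 it was at 17.8, 16.9 and 16.95 CPM in 2D and at 10.9, 11.3 and 10.6 CPM in 3D. The LS513 groups were far apart, and CDKN2C fell by 0.65 on the log2 scale (SE 0.12, adjusted p = 2.5e-04). In HCT116 it was at 13.9, 17 and 17 CPM in 2D and at 11.04, 10.2 and 14.2 CPM in 3D, with 1 library of each group within the other's range. There it fell by 0.44 (SE 0.12, adjusted p = 0.0064), a call lost with technical replicates e to h alone (-0.34, adjusted p = 0.058). In HT29 the levels were 8.20, 9.57 and 8.98 CPM in 2D and 10.3, 9.20 and 9.98 CPM in 3D. In LS174T they were 29.96, 27.8 and 29.1 CPM in 2D and 26.9, 29.8 and 26.0 CPM in 3D. Both overlapped and neither was called, with log2 differences of 0.14 (SE 0.12, adjusted p = 0.36) and -0.07 (SE 0.11, adjusted p = 0.7).

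The growth effect on CDKN2C differed among lines (adjusted p = 0.0045). HT29 exceeded LS513 by 0.80 (SE 0.17, adjusted p = 0.0022) and HCT116 by 0.58 (SE 0.17, adjusted p = 0.032), and LS513 was lower than LS174T (LS513 minus LS174T -0.58, SE 0.16, adjusted p = 0.044). In 2D LS174T had the highest level, above LS513 by 0.75 (SE 0.11, adjusted p = 4.3e-06), LS513 and HCT116 did not differ (0.11, SE 0.11, adjusted p = 0.43), and HT29 was lowest. In 3D LS174T stood 1.22 above HCT116 (SE 0.12, adjusted p = 1.9e-09), and the neighbours HCT116, LS513 and HT29 did not differ (adjusted p = 0.42 and 0.28). The number of pairs of lines that differed was 5 in 2D and 3 in 3D.

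CDKN2D (chr19:10566462-10569059, minus strand) encodes p19, the INK4 protein known to vary with the cell cycle, and it changed in the same direction wherever it was called. In HCT116 it went from 8.34, 9.81 and 10.2 CPM in 2D to 16.1, 16.4 and 17.9 CPM in 3D. In HT29 it went from 11.9, 11.3 and 11.1 CPM to 15.4, 15.6 and 17.3 CPM. Neither line had overlapping groups, and CDKN2D rose by 0.83 in HCT116 (SE 0.13, adjusted p = 7.9e-05) and by 0.49 in HT29 (SE 0.13, adjusted p = 0.0056). In LS513 it was at 5.12, 4.86 and 4.499 CPM in 2D and at 6.55, 7.74 and 4.75 CPM in 3D, which overlapped. That difference of 0.39 (SE 0.14) was just past the threshold (adjusted p = 0.048) and held only when 3D replicate 3 was the library left out of the 6. It was 0.44, 0.40 and 0.35 without 2D replicates 1, 2 and 3 (adjusted p = 0.074, 0.11 and 0.14) and 0.36 and 0.22 without 3D replicates 1 and 2 (adjusted p = 0.15 and 0.38). In LS174T the levels were 6.64, 6.03 and 6.34 CPM in 2D and 8.03, 8.06 and 6.70 CPM in 3D, with a difference of 0.26 (SE 0.14, adjusted p = 0.18). The test among lines was not passed (adjusted p = 0.15), and 0 of the 6 pairs of lines differed in its growth effect by edgeR, with 2 of them at an unadjusted p below 0.05. These were LS513 minus HCT116, at -0.44 (SE 0.20, adjusted p = 0.27), and HCT116 minus LS174T, at 0.57 (SE 0.19, adjusted p = 0.1). By level, HT29 and HCT116 did not differ in 2D (0.28, SE 0.14, adjusted p = 0.077) or in 3D (0.06, SE 0.13, adjusted p = 0.69), and both were above LS174T, which exceeded LS513 in 2D (0.39, SE 0.14, adjusted p = 0.021) but not in 3D (0.26, SE 0.14, adjusted p = 0.12).

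The inhibitors act on CDKs and their cyclins. Of 11 CDK and cyclin genes, 6 fell in each of HT29, LS513 and HCT116 and 3 fell in LS174T, while 1 rose in LS513 and 1 in LS174T, and 19.6%, 9.9%, 12.3% and 9.15% of all genes were called lower in HT29, LS513, HCT116 and LS174T. CDK4, a kinase that the INK4 proteins bind, was called in none of the 4 lines, whereas CDK6, the other, fell in HT29 (133 to 69.2 CPM, log2 -0.94, adjusted p = 2.1e-04), LS513 (73.0 to 45.3 CPM, log2 -0.69, adjusted p = 0.0063) and HCT116 (83.0 to 54.6 CPM, log2 -0.61, adjusted p = 0.012). Its difference in LS174T was -0.42 (adjusted p = 0.086). CDK2, the main partner of p27 and p57, fell in all 4 lines, by 0.50 in HT29 (adjusted p = 5.8e-05), 0.38 in LS513 (adjusted p = 0.0015), 0.31 in HCT116 (adjusted p = 0.0063) and 0.42 in LS174T (adjusted p = 9.4e-04). CCND1 (cyclin D1) fell in HT29 from 128 to 57.9 CPM (log2 -1.15, adjusted p = 5.6e-07). CCND2 (cyclin D2) rose in LS513 from 59.3 to 88.6 CPM (log2 0.58, adjusted p = 0.0018) and in LS174T from 196 to 253 CPM (log2 0.37, adjusted p = 0.033), and was at 0 in HCT116. In HT29 CCND2 averaged 0 CPM in 2D and 0.022 CPM in 3D. It was thus read in LS513 and LS174T, the lines with little CDKN2A transcript, a match seen after the values were known. A link between CCND2 and CDKN2A was not tested. CCNE2 (cyclin E2) fell in LS513 (log2 -0.90, adjusted p = 2.5e-04), HCT116 (log2 -0.82, adjusted p = 4.1e-04) and LS174T (log2 -0.60, adjusted p = 0.011). CDK1, the mitotic kinase, fell in HT29 (log2 -0.53, adjusted p = 3.5e-04), LS513 (log2 -0.54, adjusted p = 6.0e-04) and HCT116 (log2 -0.55, adjusted p = 3.7e-04). CDK4, CDK6 and CDK2 are singled out here as the known partners of the inhibitors, after their values were seen.

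Of 13 pocket protein and E2F genes, 7 fell in HT29 and in LS513, 8 in HCT116 and 5 in LS174T, and 1 rose, TFDP2 in HT29 (log2 0.45, adjusted p = 0.015). E2F3, an activating E2F, fell in all 4 lines, with log2 differences of -1.08 in HT29 (adjusted p = 2.4e-06), -0.60 in LS513 (adjusted p = 0.0021), -0.73 in HCT116 (adjusted p = 2.9e-04) and -0.69 in LS174T (adjusted p = 0.0011). E2F8, a repressive E2F, fell in LS513 (log2 -0.71, adjusted p = 0.0012), HCT116 (log2 -0.59, adjusted p = 0.0041) and LS174T (log2 -0.55, adjusted p = 0.01). Of 14 proliferation markers 9, 9, 11 and 6 fell in HT29, LS513, HCT116 and LS174T, with medians of -0.50, -0.30, -0.44 and -0.20. For both lists, the share of all genes called lower was 19.6%, 9.9%, 12.3% and 9.15% in this order of lines. BUB1 and TYMS fell in all 4 lines, BUB1 most in HT29 (log2 -0.96, adjusted p = 3.9e-06) and TYMS most in HCT116 (log2 -0.60, adjusted p = 5.2e-06). MKI67 fell in HT29 (log2 -1.21, adjusted p = 2.1e-05) and LS174T (log2 -0.92, adjusted p = 0.0012). The part of the proliferation markers in the differences of the 6 genes was not tested.

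Across the 24 libraries the 6 genes had unlike profiles. The Pearson correlation of log2 CPM was 0.87 for CDKN2A with CDKN2D and 0.63 for CDKN2A with CDKN2B, while it was -0.85 for CDKN2B with CDKN2C and -0.74 for CDKN1B with CDKN2A. The libraries of a line share that line, so these values mainly order 4 lines and carry no test. Among 14616 genes with a mean of at least 1 CPM, those most like CDKN1B were HIBCH (0.970), SCRN3 (0.969) and AL109613.1 (0.961), and those most like CDKN1C were CLYBL (0.976), RAMP1 (0.975) and AREG (0.954). The nearest to CDKN2A were GRB14 (0.989), CSPG4 (0.988) and ZNF525 (0.987), each at 0 in at least 1 library. The nearest to CDKN2B were EMP1 (0.885), DENND3 (0.868) and CSNK1D (0.836), the lowest correlations of the 6. For CDKN2C they were PRMT7 (0.952), MCM7 (0.950) and AL163051.1 (0.941), and for CDKN2D C1orf123 (0.963), PDZD7 (0.956) and ACYP2 (0.945). MCM7, a subunit of the replicative helicase, is itself one of the proliferation markers.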

How the data were processed

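Whole-number gene counts, 1 file per technical replicate, were made by the authors from single 75-base reads of stranded poly(A) libraries by trimming with Trim Galore 0.4.1, aligning with STAR, removing reads that mapped more than once and counting with HTSeq 0.5.3, per the labels and the methods. The processing notes name hg19, whereas the methods name an Ensembl release on GRCh38. The IDs were matched here to GENCODE 29 on GRCh38 (57980 of 58243), and positions come from it. The 191 count files used were summed to 24 libraries, with 8 technical replicates each except 1 library of HT29 in 3D with 7; the other was not analysed here. The counts were deposited without normalization.

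Groups came from the labels. The counts were fitted with edgeR 4.0.16 in R 4.3.3 (filterByExpr, TMM, robust quasi-likelihood F-test, 1 coefficient for each of 8 groups), with Benjamini-Hochberg adjustment over 19387 genes. Contrasts were 3D against 2D in each line, their differences between lines (an F-test with 3 degrees of freedom and 6 pairs) and lines in 2D and in 3D. SEs were derived from the log2 difference and its F value, and intervals from the total degrees of freedom, residual and prior. The steps were tested on simulated data. Alternatives were DESeq2 1.42.0, its size factors, no filter on low counts, a replicate block, single-line fits, technical replicates a to d or e to h alone, the study's cutoffs (log2 below -0.5 or above 1.5) and leaving out each library. Leaving out libraries in comparisons between lines, and technical replicates a to d or e to h there, were added after seeing the data. CPM per kb used the union of exons. The 6 genes and all gene lists were chosen with earlier results of these data known. The genes named are the 6, CDKN1A, their neighbours, in each list and line the called gene with the smallest p in each direction, and the 3 genes of highest correlation, plus a few partners and targets of the inhibitors named after their values were seen (CDK2, CDK4, CDK6 and repeats of a named gene in other lines). Promoter windows are from RefSeq (GRCh38.p14). Intervals and floors cover counting error or the spread between libraries only.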

Additional observations from a re-analysis of the deposited data

Results flagged for a closer look

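A growth effect that differed between 2 lines, by the edgeR test of the difference itself (adjusted p below 0.05 over 19387 genes), was found for 13 of the 36 combinations of the 6 genes with the 6 pairs of lines, where 3.62% to 12.1% of all genes differed in a pair. CDKN2B gave 5 of them, with log2 differences of -3.69 (HT29 minus LS513), -1.40 (HT29 minus HCT116), 2.30 (LS513 minus HCT116), 3.66 (LS513 minus LS174T) and 1.37 (HCT116 minus LS174T). CDKN1C gave 3, of 1.45 (HT29 minus LS513), -1.06 (LS513 minus HCT116) and -1.07 (LS513 minus LS174T), so the growth effect in LS513, itself not called, was smaller than in each of the other lines. CDKN2C gave 3, of 0.80 (HT29 minus LS513), 0.58 (HT29 minus HCT116) and -0.58 (LS513 minus LS174T). CDKN1B gave 2, of 0.46 (HT29 minus LS513) and -0.58 (LS513 minus LS174T). LS513 took part in 10 of the 13.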

How the results depend on the processing

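Counts of the 6 genes called in 3D against 2D were 4, 3, 4 and 2 in HT29, LS513, HCT116 and LS174T. In HT29 the count was 1 (CDKN1C) with a replicate block, 2 under the study's cutoffs, and 2 or 3, never 4, when 1 of its libraries was left out. Under the study's cutoffs it was 0 in HCT116 and 0 in LS174T, and with only the 6 libraries of LS174T it was 1 (CDKN1C). The cutoffs add a fold limit. In HT29, 2D replicate 2 and 3D replicate 4 had no library of equal number in the other growth condition. The replicate block thus rested on HT29 replicates 1 and 3 for the growth effect. The cause of the other changes was not tested. The count of genes whose growth effect differed among lines was 4, or 3 under the replicate block (CDKN1B lost) and with technical replicates e to h (CDKN1C lost), and 5 without LS513 2D replicate 3 (CDKN2A added), and the counts between lines stayed within 1.5 times, in the alternatives run. The sign turned, with no call, for CDKN2A in HT29 (0.01 with DESeq2 size factors and with DESeq2, 0.02 without the filter, and a range of -0.03 to 0.04 over the libraries left out), for CDKN1B in HCT116 (0.00 with DESeq2 size factors and with DESeq2, 0.05 with technical replicates a to d, and -0.12 to 0.04 over the libraries left out) and for CDKN2A in LS174T (-0.31 without 3D replicate 3, in a range of -0.31 to 0.98 over the libraries left out). Deviations from the group mean were weakly correlated between libraries of equal number (-0.146 to 0.0938), and those of unequal number ranged from -0.229 to 0.221. With 3 libraries per group, these values cannot decide whether equal numbers mark paired cultures. Besides HT29, the replicate block took the CDKN2D call in LS513 (0.37, adjusted p = 0.087) and the test among lines for CDKN1B (adjusted p = 0.1). Depth limits CDKN2A in LS513 and LS174T and CDKN1C in HT29, where libraries held few reads.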
